A study of Mus musculus with 2 samples.

Results

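Acinar cells, the exocrine cells that make the digestive enzymes of the pancreas, accounted for 255 of the 2550 barcodes kept from the whole-tumour library of a mouse pancreatic cancer, or 10% (exact binomial interval 8.86% to 11.2%). A barcode stands for 1 droplet and, usually, 1 cell. Whether each acinar barcode held a whole cell was not tested, so the 10% is a share of barcodes. A barcode was counted as acinar when the unique molecular identifiers (UMIs, each standing for 1 captured RNA molecule) of Prss2, Try5, Cpb1, Cel, Clps, Pnliprp1 and Pnliprp2 together reached 5000 per 1000000 of its UMIs (counts per 1000000, CPM) and Epcam, an epithelial adhesion gene, stayed under 500 CPM. To be kept, a barcode needed 500 detected genes and 1000 UMIs or more, with mitochondrial UMIs not above 20%. The 255 acinar barcodes are drawn from 7642 kept barcodes in 2 libraries, the whole tumour and a sort for high CD9, with 1 library for each. Every interval given here is a 95% interval that covers counting error only, since no second library of either kind exists in these data and no difference could be tested over samples.

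The tumours came from the KPFRR line of mice with pancreatic ductal adenocarcinoma. In this line Flp recombinase is driven by the pancreatic promoter Pdx1 (the allele Pdx1-Flp). It carries, on both copies, a Trp53 allele flanked by the frt sites that Flp recombines (Trp53frt/frt). It also carries Rosa26FSF-creER, a Flp-activated inducible Cre, and the colour reporter Rosa26mTmG; all groups described here share these alleles. Flp under Pdx1 acts in the whole early pancreas, so acinar, ductal and islet cells can all descend from recombined cells. Tumours were digested with collagenase V and TrypLE, and living cells were sorted on GFP or on CD9, per the labels' protocols; the design text names GFP-positive cells. Whether the whole-tumour library was sorted on GFP is not stated for it, and such a sort could set the 10% acinar share. No GFP UMI was counted in either library, and the tdTomato feature had 6 UMIs in the whole tumour and 10 in the CD9-high library, so the reporter was no check of the sort. The number, age and sex of the animals are not given in the sources used here.

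An acinar cell stores inactive enzyme precursors (zymogens) in granules at its apical side and releases them when cholecystokinin or nerves stimulate it. Its identity is held by the PTF1 complex, in which Ptf1a pairs with Rbpjl, and by Nr5a2, Bhlha15 (Mist1) and Xbp1, which builds the secretory apparatus. Under inflammation, acinar cells can lose these programmes and take on duct-like genes such as Krt19 and Sox9, a change known as acinar-to-ductal metaplasia. The Reg genes encode small secreted lectins that acinar cells make in quantity in an inflamed pancreas.

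The letters that stand in front of 4 acinar enzyme genes are shown first. PTF1 is known to bind an E-box (CANNTG) followed by a TC-box (TTTCCC) in acinar promoters. Ctrb1, Cela1 and Prss1 are shown because they held this pair, and Try4 as a gene without it. Each is the 250 bases up to the start site, 5′ to 3′ on the gene's strand, from the RefSeq promoter table for GRCm38.p6. Capitals mark CANNTG followed, after 4 further bases, by TTTCCC, searched on both strands.
Ctrb1 (chr8:111691011-111691260, minus strand): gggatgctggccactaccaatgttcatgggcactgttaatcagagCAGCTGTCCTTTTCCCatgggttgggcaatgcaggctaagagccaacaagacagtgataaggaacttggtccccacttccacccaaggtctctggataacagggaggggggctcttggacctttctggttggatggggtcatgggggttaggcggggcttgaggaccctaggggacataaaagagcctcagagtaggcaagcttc
Cela1 (chr15:100687921-100688170, minus strand): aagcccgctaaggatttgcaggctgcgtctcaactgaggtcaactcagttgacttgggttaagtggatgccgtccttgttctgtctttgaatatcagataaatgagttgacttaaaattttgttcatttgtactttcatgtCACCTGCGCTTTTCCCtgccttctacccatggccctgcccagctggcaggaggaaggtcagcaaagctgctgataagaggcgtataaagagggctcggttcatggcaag
Prss1 (chr6:41458680-41458929, plus strand): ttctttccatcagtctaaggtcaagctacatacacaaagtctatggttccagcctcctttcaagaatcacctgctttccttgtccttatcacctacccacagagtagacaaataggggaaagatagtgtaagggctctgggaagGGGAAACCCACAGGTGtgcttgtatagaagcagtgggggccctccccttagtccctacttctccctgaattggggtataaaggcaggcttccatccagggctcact
Try4 (chr6:41302022-41302271, plus strand): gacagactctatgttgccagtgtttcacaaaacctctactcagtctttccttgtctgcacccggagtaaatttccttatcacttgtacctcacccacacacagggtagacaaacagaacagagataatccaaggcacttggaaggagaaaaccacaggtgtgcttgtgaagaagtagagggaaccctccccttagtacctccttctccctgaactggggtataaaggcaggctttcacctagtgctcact
The match began 205 bases before the start site in Ctrb1 and 109 bases before it in Cela1, and in Prss1 it lay on the opposite strand, 106 bases before the start. Try4 held no match in this window, and neither did Prss2 and Cela3b, which are not shown. Of the 49 acinar genes listed, 39 were found in the table, with 48 promoters, and 3 of these (6.25%) held the pair in a window of 300 bases, against 31 of all 32851 promoters (0.0944%). The pattern was chosen after the sequences were seen. A plain TATAAA was present in 29.2% of the acinar promoters and 13.6% of all promoters, and CACCTG, a form of the E-box, in 41.7% and 20.2%. These are matches of letters and not measured binding sites.

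The acinar barcodes held 4384322 UMIs. Their UMI counts ran from 1034 through a median of 14658 to 70877, and the 2295 other kept barcodes had a median of 17904. The acinar barcodes detected far fewer genes, with a median of 1315 against 4085. Mitochondrial UMIs were a median of 0.361% against 3.66%. Secretory genes, described below, took most acinar UMIs and so lower such shares. Outside the 4 lists of secretory genes, the medians were 4378 UMIs in acinar and 17464 in the other kept barcodes. Of those UMIs, pooled, 2.56% and 3.91% were mitochondrial. The libraries contained 3082 and 5500 barcodes with 48287984 and 120451299 UMIs, and they shared 2 barcodes, neither of them acinar.

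The enzyme sum that chose the cells ran from 5106 through a median of 184579 to 275875 CPM, so most acinar barcodes lay far above the threshold. It was at least 100000 CPM in 219 of the 255 and at least 50000 CPM in 236. All 7 enzymes of the rule had a UMI in 228 barcodes. The threshold itself was crossed by few cells: 3 barcodes lay between 5000 and 10000 CPM and 5 low-Epcam barcodes between 2500 and 5000 CPM. The limit on Epcam cut through a denser region. The 27 acinar barcodes at 400 to 500 CPM of Epcam had a median enzyme sum of 120463 CPM and a pooled Krt19 level of 183 CPM, and the 15 left out at 500 to 600 CPM had 48323 and 538 CPM. With no Epcam limit 21.7% of kept barcodes would have met the rule, and with a limit of 200 CPM 7.37% would have.

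**Figure D1:**
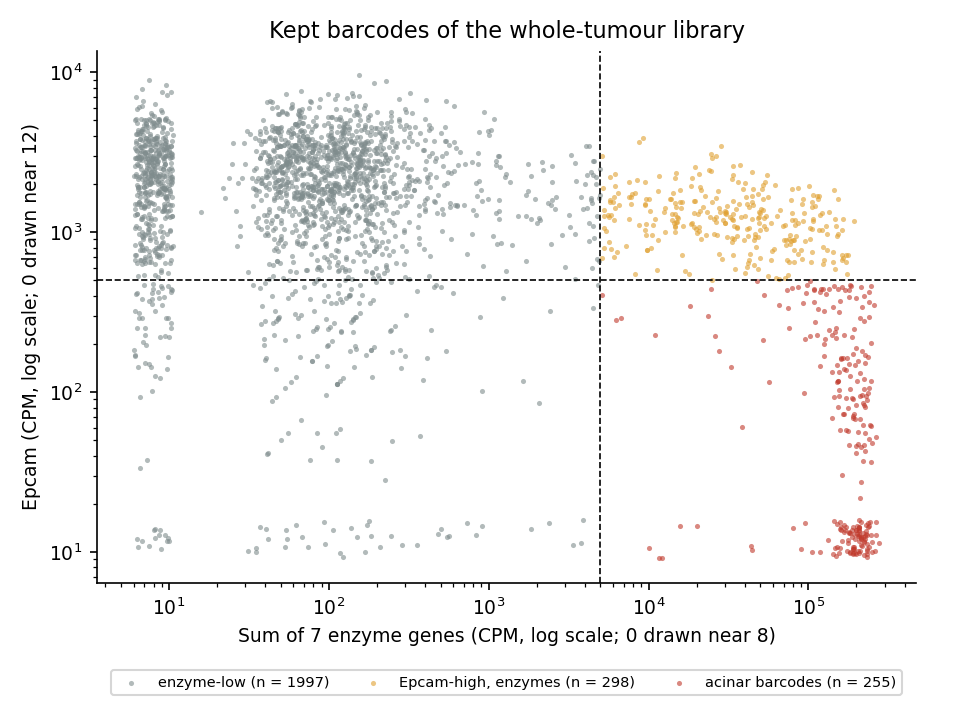
Each point is 1 kept barcode of the whole-tumour library, by the summed level of the 7 enzyme genes (horizontal, CPM, log scale) and Epcam (vertical, CPM, log scale); dashed lines mark 5000 and 500 CPM. The 255 acinar barcodes sit mostly beyond 100000 CPM of enzymes, while the 298 Epcam-high barcodes with the enzymes spread from the threshold to the right.

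The 298 barcodes that reached the enzyme threshold with Epcam at 500 CPM or more (called Epcam-high below) made up 11.7% of the kept barcodes, and the remaining 1997 are called enzyme-low. The Epcam-high barcodes had a median enzyme sum of 33964 CPM and 3905.5 genes. In the CD9-high library 2 of 5092 kept barcodes met the acinar rule (0.0393%, exact binomial interval 0.00476% to 0.142%), and a count of 0 there would have allowed up to 0.0589%. The first, with 35352 UMIs, carried 7807 CPM of the enzymes beside 7892 CPM of Vim, a mesenchymal filament, and 3083 CPM of Cd9. The second, with 3363 UMIs and 16.3% mitochondrial UMIs, carried 39845 CPM of the enzymes and no Vim UMI. Neither held a Ptf1a UMI, and all values below are of the whole-tumour library.

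Pooled over the acinar barcodes, secretory transcripts were the larger part of the UMIs. Genes on 4 secretory lists (zymogen proteases, lipases with amylases and nucleases, granule genes and the Reg family, 64 genes in all) took 63.4% of the acinar UMIs, 12% of the Epcam-high UMIs and 2.45% of the UMIs of all other kept barcodes. The share in single acinar barcodes ran from 1.38% through a median of 68.2% to 84.7%. Ctrb1, which encodes chymotrypsinogen B, was the most abundant gene in 213 of the 255 barcodes (83.5%). Since the 3′ assay counts 1 end per captured transcript whatever its length, levels in CPM can be set beside each other between genes.

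Chymotrypsinogens took 23.1% of the acinar UMIs, against 2.44% in the Epcam-high and 0.0315% in the enzyme-low barcodes. Trypsinogens followed with 13.8%, 4.23% and 0.0161%. Reg proteins took 10.1%, 3.07% and 0.26%. Lipases with colipase took 5.05% of the acinar UMIs, carboxypeptidases 3.43%, elastases 3.13%, granule genes 2.51% and ribonuclease 1.14%. A set of 5 predicted trypsinogen-like genes, led by 2210010C04Rik at 27458 CPM and singled out after its values were seen, added 3.2%. Amylases, which digest starch and are usually named among the main acinar products, took 0.0938%. The trypsinogen, amylase and Reg genes have close copies, so the split of counts among them is uncertain.

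**Figure D2:**
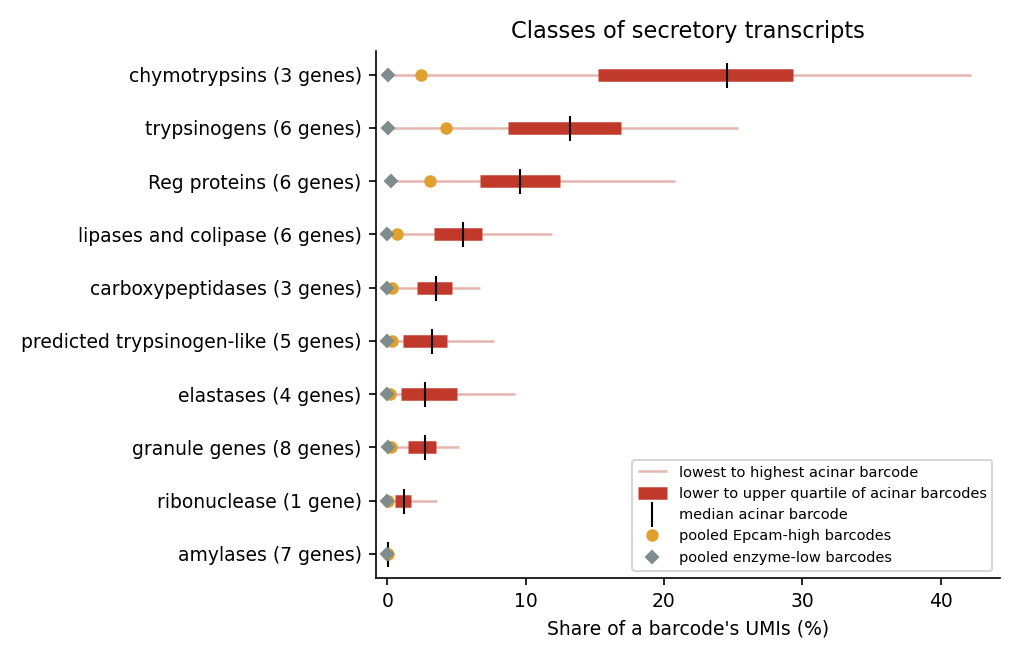
Share of a barcode's UMIs (horizontal, %) taken by each class of secretory genes (vertical, number of genes in brackets): thin lines run from the lowest to the highest acinar barcode, thick bars span the quartiles, ticks are medians, circles are pooled Epcam-high and diamonds pooled enzyme-low barcodes. Chymotrypsinogens have the highest median, 24.6%, and amylases the lowest, 0.0798%.

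Single enzymes differed widely in how even they were. Ctrb1 ran from 94 through a median of 239330 to 421187 CPM over the 255 barcodes, with a pooled level of 227666 CPM against 24249 in the Epcam-high and 313 in the enzyme-low barcodes. Prss2, a trypsinogen used by the rule, ran from 717 through 57471 to 113927 CPM. Try4, a trypsinogen outside the rule, ran from 0 through 10583 to 83572 CPM and was pooled at 17688 CPM, against 510 in the Epcam-high barcodes. Ctrb1 was thus present in every acinar barcode, while Try4 was detected in 234 of them and its median lay well under its pooled level.

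Pnlip, the main triglyceride lipase, was uneven too. It was detected in 188 of the 255 barcodes and ran from 0 through a median of 542.5 to 26319 CPM. Its pooled level was 3192 CPM, against 85.4 in the Epcam-high barcodes and 1.24 in the enzyme-low ones. The related lipases of the rule were more even, with Pnliprp1 at a median of 26008 CPM and detected in 252 barcodes. Cela3b and Cela2a, which are elastases, had medians of 18517 and 5681 CPM. Prss1, another trypsinogen gene, was low at a pooled 71.2 CPM and had UMIs in 80 barcodes, with 14.7% of them in 1 barcode.

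The granule and stimulus genes were present as well. Zg16 and Gp2, which encode proteins of the granule membrane, were pooled at 4017 and 4356 CPM, with medians of 3813 and 4368. Sycn (syncollin) was at 4712 CPM and Spink1, the trypsin inhibitor packed with the zymogens, at 5963 CPM. Cckar, the cholecystokinin receptor, was at 141 CPM (130 to 152) and detected in 187 barcodes, against 58.1 CPM in the Epcam-high and 1.07 in the enzyme-low barcodes. Dmbt1 was less restricted, at 4371 CPM in acinar and 529 CPM in enzyme-low barcodes.

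Secretory transcripts were also found at low levels in the enzyme-low barcodes, and by unequal amounts. Ctrb1 in the enzyme-low barcodes stood at 313 CPM and had a UMI in 33.7% of these after thinning every barcode to 5000 UMIs, against 100% of acinar barcodes. Reg1 and Reg3b in the enzyme-low barcodes stood at 1363 and 1079 CPM, which was 3.48% and 4.16% of the acinar level. Pnlip in the enzyme-low barcodes stood at 1.24 CPM.

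Because the secretory genes took so large a share of the acinar UMIs, all other genes were diluted on the CPM scale. Ratios are therefore given on 2 scales: CPM of all UMIs, and residual CPM, which is per 1000000 of the UMIs outside the 4 secretory lists. Going from the first to the second adds 1.41 to every log2 ratio of acinar over the other kept barcodes. Of 8917 measured genes (mean of at least 5 CPM over both groups, the 8 genes of the rule left out), 1.91% were at least 2-fold higher in the acinar barcodes and 82.1% at least 2-fold lower in CPM. On residual CPM the shares were 7.32% and 21.2%. The median log2 ratio over all measured genes was −1.76 in CPM and −0.35 in residual CPM. The rule selected cells on this contrast, so the counts of genes given below describe these cells and are not a test.

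Of the lists, the secretory ones stood highest. All 13 measured zymogen proteases were at least 2-fold higher in acinar barcodes, with a median log2 ratio of 6.59 (8 on residual CPM). All 9 lipases, amylases and nucleases outside the rule were higher as well, with a median of 5.82 (7.23). Of 16 granule and secretion genes 13 were higher and 1 lower in CPM (15 and 0 on residual CPM). Pnlip had the highest ratio of all genes named by rank, at 7.85 (interval 7.73 to 7.98), followed by Try4 at 7.74, Zg16 at 7.34 and Cela3b at 7.31. Aqp12, an acinar water channel, was at 86 CPM in acinar and 0.0561 CPM in enzyme-low barcodes.

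The Reg and pancreatitis list was split. Of 12 measured genes 6 were at least 2-fold higher and 3 lower in CPM (7 and 1 on residual CPM). Among all measured genes 1.91% were higher and 82.1% lower in CPM (7.32% and 21.2% on residual CPM). Reg1 ran from 0 through a median of 37258 to 96539 CPM, and its pooled level of 39162 CPM was 3.35 higher on the log2 scale than in the other kept barcodes. Reg3b ran from 0 through 21087 to 69498 CPM. Reg3a and Reg3d had the highest log2 ratios of the family, 6.67 and 6.78. Nupr1, a stress gene first found in pancreatitis, was at 3886 CPM in acinar, 5468 in Epcam-high and 1863 in enzyme-low barcodes.

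The acinar transcription factors were present at much lower levels than the enzymes. Ptf1a, which defines the lineage, had 307 UMIs in 124 of the 255 barcodes and a pooled level of 70 CPM (62.4 to 78.3). In the enzyme-low barcodes it was at 4.24 CPM. Rbpjl, its partner, was detected in 129 barcodes at 97.4 CPM (88.4 to 107), against 2.69 CPM in the enzyme-low barcodes. Bhlha15 was at 12.3 CPM (9.25 to 16.1) in acinar barcodes, 0.96 in Epcam-high and 0.196 in enzyme-low barcodes. Both Ptf1a and Rbpjl were detected in 75 barcodes, at least 1 of Ptf1a, Rbpjl, Nr5a2 and Bhlha15 in 203, and none of the 4 in 52. Of the 6 marker genes given for these cells, 5 were used by the rule (Prss2, Cpb1, Cel, Clps and Pnliprp1, each detected in 243 to 255 barcodes), and Ptf1a was not.

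Of 11 measured acinar factors 4 were at least 2-fold higher and 3 lower than in the other kept barcodes in CPM, with a median log2 ratio of 0.69. On residual CPM the counts were 7 and 0 and the median 2.10. For all measured genes the shares higher and lower were 1.91% and 82.1% in CPM, and 7.32% and 21.2% on residual CPM. The log2 ratio of Ptf1a was 1.25 (interval 1.06 to 1.43) and that of Rbpjl 2.18 (2.01 to 2.35). Bhlha15 had 5.27 (4.42 to 6.31) and Nr5a2 1.55 (1.29 to 1.80). Gata6 was the other way round on the CPM scale, at −1.11, and at 0.30 on residual CPM, so its direction depends on the scale.

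After thinning to 5000 UMIs, which left 235 of the 255 acinar barcodes, 24.3% of acinar (exact binomial interval 18.9% to 30.2%), 47% of Epcam-high and 1.34% of enzyme-low barcodes had a Ptf1a UMI. Unthinned, at medians of 14658, 20034 and 17535 UMIs, the shares came to 48.6%, 74.8% and 2.35%. Thinned instead to 1500 residual UMIs, the shares with Ptf1a were 18.1% (13.6% to 23.5%), 25.1% (20.2% to 30.4%) and 0.252%. Krt19 had a UMI in 18.1% (13.6% to 23.5%), 52.5% (46.7% to 58.4%) and 66.9% at that depth. These intervals cover counting error only and are no test between groups. The acinar and Epcam-high barcodes were also split on Epcam, itself an epithelial gene.

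Genes of ducts and of duct-like acinar cells were low. Of 25 measured genes on this list 22 were at least 2-fold lower in acinar barcodes and 1 was higher, with a median log2 ratio of −3.92. On residual CPM the counts were 17 and 1 and the median −2.51. The shares of all measured genes that were lower were 82.1% in CPM and 21.2% on residual CPM. Krt19, a duct keratin, ran from 0 through a median of 0 to 1391 CPM, and its pooled 74.1 CPM compared with 680 CPM in Epcam-high and 1550 CPM in enzyme-low barcodes. Spp1 (osteopontin) ran from 0 through 98.3 to 18513 CPM, pooled at 689 CPM against 13841 in the enzyme-low barcodes. The highest acinar barcode lay above the pooled enzyme-low level of Spp1 but below that of Krt19.

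Clu and Tff2 stood out on this list by their abundance in the acinar barcodes. Clu (clusterin), a secreted chaperone of injured exocrine cells, was detected in 254 acinar barcodes and ran from 0 through 2050 to 38525 CPM. Its log2 ratio against the other kept barcodes was −1.77 in CPM and −0.35 in residual CPM. Tff2 (trefoil factor 2), usually a mucous-cell peptide, was the gene of the list that stood higher. It ran from 0 through 2125 to 8832 CPM and was pooled at 2220 CPM against 1068 in enzyme-low barcodes, a log2 ratio of 1.15 against the other kept barcodes (1.12 to 1.18). Tff1, its neighbour in the family, stood at 29.7 CPM with 59.2% of its UMIs in 1 barcode. Sox9, a ductal factor, had a log2 ratio of −1.73 in CPM and −0.32 in residual CPM.

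**Figure D3:**
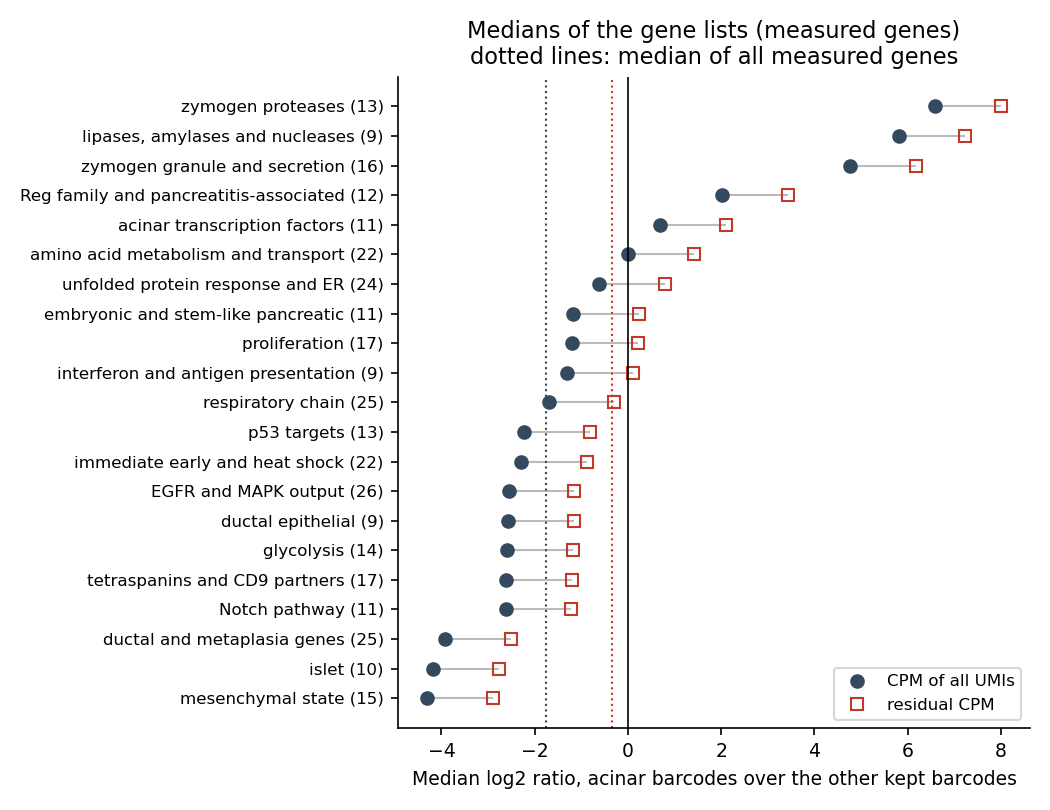
Median log2 ratio of acinar barcodes over the other kept barcodes (horizontal) for each gene list with at least 5 measured genes (vertical, number in brackets), in CPM of all UMIs (filled circles) and residual CPM (open squares); dotted lines are the medians of all measured genes. The secretory lists lie far to the right on both scales, and the unfolded protein, proliferation, interferon and embryonic lists cross 0 between the scales.

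Genes of the tumour's own programme were mostly lower, as were 82.1% of all measured genes in CPM (21.2% on residual CPM). Of 26 genes of EGFR and MAPK signalling 23 were at least 2-fold lower in CPM and 0 higher (15 and 1 on residual CPM), with a median of −2.56 (−1.15). Areg, an EGF-family ligand, had 19 UMIs in all acinar barcodes, or 4.33 CPM against 526 CPM in the enzyme-low barcodes. Of 15 mesenchymal genes 14 were lower (11 on residual CPM) and none was higher. Vim had 593 UMIs, 135 CPM, but in the 236 acinar barcodes with at least 50000 CPM of enzymes its level was 7 CPM. All 10 measured islet genes were lower in CPM, and 8 on residual CPM.

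Cd9, the tetraspanin that the other library was sorted on, was detected in 147 acinar barcodes at 84.2 CPM (75.8 to 93.2), against 381 CPM in Epcam-high and 1575 CPM in enzyme-low barcodes. Its log2 ratio against the other kept barcodes was −4.05 in CPM and −2.64 in residual CPM. Of 17 measured tetraspanins and CD9 partners 15 were lower and 0 higher (10 and 1 on residual CPM). Over all measured genes 82.1% were lower in CPM and 21.2% on residual CPM. Cd63, a granule and lysosome tetraspanin, had a ratio of −1.25 in CPM and 0.16 in residual CPM.

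Trp53, a gene altered in this line, was low in RNA. It stood at 22.8 CPM (18.6 to 27.7) in acinar, 109 CPM in Epcam-high and 201 CPM in enzyme-low barcodes. Its log2 ratio against the other kept barcodes was −3.03 in CPM and −1.62 in residual CPM. UMI counts at the 3′ end do not show which allele is read, so they are no check of recombination in the acinar cells. Of 11 measured Notch genes 9 were lower and 0 higher (7 and 1 on residual CPM). In CPM this was near the 82.1% of all measured genes that were lower, and on residual CPM that share was 21.2%. Jag1, a Notch ligand, had 30 UMIs, 6.84 CPM against 92.7 CPM in enzyme-low barcodes.

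The protein-making and amino-acid genes lay between these extremes. Of 24 genes of the unfolded protein response 0 were higher and 9 lower in CPM, but 9 were higher and 1 lower on residual CPM, and the median turned from −0.62 to 0.79. P4hb, a disulphide isomerase, was at 314 CPM against 178 CPM in enzyme-low barcodes, and Hspa5, the main ER chaperone, at 335 against 411 CPM. The log2 ratio of Hspa5 against the other kept barcodes was −0.36 in CPM and 1.05 in residual CPM. Of 22 genes of amino acid metabolism and transport 5 were higher and 9 lower in CPM (13 and 2 on residual CPM). Beside both lists, 1.91% of all measured genes were higher and 82.1% lower in CPM, and 7.32% and 21.2% on residual CPM. The medians over all measured genes were −1.76 and −0.35.

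Gatm, which makes the creatine precursor guanidinoacetate from arginine and glycine, led the amino-acid genes in abundance among those that were higher, at 147 CPM (136 to 159) against 22.1 in Epcam-high and 6.12 in enzyme-low barcodes. It was detected in 185 acinar barcodes. Its log2 ratio against the other kept barcodes was 4.11 (3.92 to 4.30). Slc38a5 and Slc7a8, amino acid carriers, had 4.99 and 4.75, and Gnmt, a glycine methyltransferase, 4.46. Gamt, the enzyme after Gatm in creatine synthesis, was at 104 CPM in acinar barcodes and at 226 CPM in the Epcam-high ones. The respiratory chain list had 22 of 25 genes lower in CPM and 0 on residual CPM, beside 82.1% and 21.2% of all measured genes.

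Against the Epcam-high barcodes, the cells most like them by the rule, the acinar barcodes had more of the secretory genes and, in CPM, less of most others. Of 8437 measured genes 1.34% were at least 2-fold higher and 79% lower in CPM, and 5.3% and 12.9% on residual CPM; the shift between the scales was 1.26. All 13 zymogen proteases were higher, with a median log2 ratio of 3.92. Pnlip and Try4 had the highest ratios, 5.22 and 5.12, and Ctrb1 had 3.23. Prss2, which was part of the rule in both groups, had 1.02.

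The acinar factors did not follow the enzymes in this comparison. Of 12 measured factors 1 was at least 2-fold higher and 6 lower in CPM, with a median of −1.08, and on residual CPM the direction turned, with 2 higher, 1 lower and a median of 0.18. These medians lay above those over all measured genes, −1.52 in CPM and −0.26 on residual CPM. Of all measured genes 1.34% were higher and 79% lower in CPM, and 5.3% and 12.9% on residual CPM. Ptf1a was at 70 CPM against 174 CPM in the Epcam-high barcodes, a log2 ratio of −1.31 (interval −1.50 to −1.13) in CPM and −0.05 in residual CPM. Rbpjl had −0.40 and 0.86 on the 2 scales. Bhlha15 was the factor that was higher on both, at 3.58 (2.47 to 5.19) and 4.84.

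Ductal genes were lower than in the Epcam-high barcodes for 20 of 24 genes in CPM and 15 on residual CPM, with 1 higher on both scales, Tff2 at 1.83 and 3.09. In CPM this was near the 79% of all measured genes that were lower, and on residual CPM that share was 12.9%. Cldn18, a gastric-type tight junction gene, had 19 UMIs against 1142, a log2 ratio of −5.36. Among genes named by rank, Gcg and Sst, hormones of islet alpha and delta cells, were lowest, with 3 UMIs against 2213 and 1 UMI against 769. The log2 ratio was −8.79 for Gcg (interval −11.29 to −7.47) and −8.49 for Sst (−14.38 to −6.59).

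Within the acinar barcodes the enzymes did not vary together as 1 block. A Spearman correlation of CPM across barcodes is given as a description; the barcodes share 1 library, and the genes share the total that divides them. Over all 255 barcodes Pnlip went with Try4 (0.87), Cela3b (0.83) and Cela2a (0.81), and Try4 with Cela3b (0.89). Over the 236 barcodes with at least 50000 CPM of enzymes these were 0.86, 0.82, 0.79 and 0.87. Pnlip and Reg3b ran opposite to each other, at −0.33 over all barcodes and −0.54 over the 236.

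Reg2 and Reg3b went together (0.68), as did Prss2 and Try5 (0.73). Clps (colipase) went with Rnase1 (0.80) and opposite to Clu (−0.71). Ctrb1, the most abundant gene, went with Cela3b (0.66) and Cpb1 (0.63) and was more loosely tied to Cel (0.38) and Prss2 (0.27).

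The acinar barcodes were also ranged by the enzyme sum of the rule, into 19, 17, 35, 86 and 98 barcodes. Their lower limits, set after values were seen, were 5000, 50000, 100000, 150000 and 200000 CPM. This sum chose the cells, so the ranges describe them and are no second view of the correlations. Pooled Try4 was 539, 952, 6059, 46744 and 101264 residual CPM from the lowest range to the highest. Pnlip was 314, 51.7, 529, 8588 and 18364 residual CPM. Both had their highest levels in the 2 upper ranges, in CPM as well. Reg3b was at 5406, 47046, 72881, 96543 and 81737 residual CPM, and at 4987, 32097, 37348, 31116 and 21557 CPM. It was thus higher in the last range than in the second on residual CPM and lower in CPM.

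The acinar factors differed in their course. Rbpjl was at 121 residual CPM in the lowest range, 553 in the second and 189 in the highest. Nr5a2 was at 85.3, 258, 155, 88.9 and 56.9 residual CPM. Ptf1a changed less, at 207, 244, 238, 157 and 176 residual CPM. Bhlha15, with at most 31 UMIs in a range, was at 0, 22.1, 15.1, 36.5 and 56.9 residual CPM. Bhlha15 was thus highest in the highest range, as were Pnlip and Try4. Clu was at 8671, 16014, 20862, 12650 and 10662 residual CPM. Epcam in the same ranges stayed between 193 and 570 residual CPM, and between 1270 and 1643 residual CPM in the Epcam-high barcodes, a gap that the rule fixed by its limit on Epcam.

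**Figure D4:**
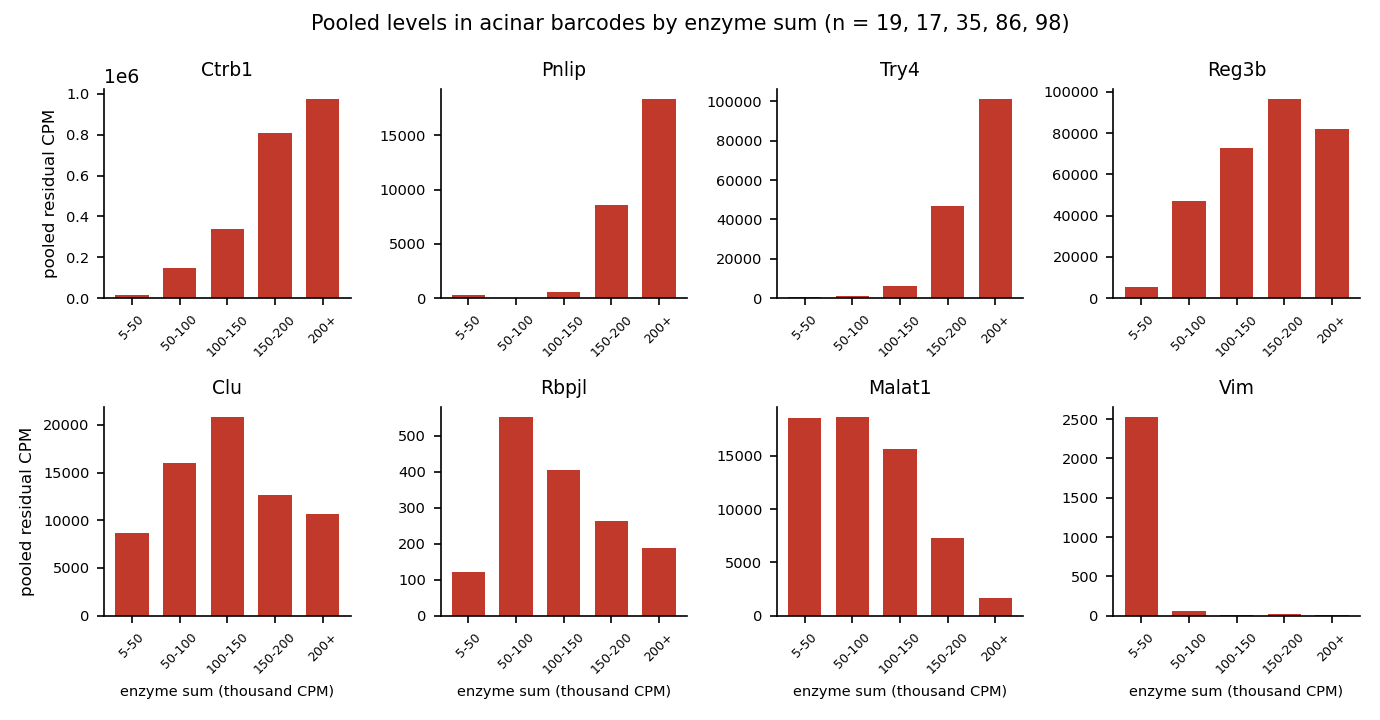
Pooled level in acinar barcodes (vertical, residual CPM, each panel with its own scale from 0) in 5 ranges of the enzyme sum (horizontal, in units of 1000 CPM; 19, 17, 35, 86 and 98 barcodes). Pnlip and Try4 are found mostly in the 2 highest ranges, Clu and Rbpjl peak in middle ranges, Malat1 is lowest in the highest range and Vim is found in the lowest.

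The 19 barcodes of the lowest range were unlike the rest. Their median was 6945 UMIs with 4.33% mitochondrial UMIs, against 18544 UMIs and 0.175% in the highest range. Of pooled residual UMIs the mitochondrial shares were 4.34% and 1.11%. Of the 9 acinar barcodes with Vim at 500 CPM or more 7 were among these 19, and Rn18s was the most abundant gene in 12 of them. A single barcode supplied 98.4% of all Ins2 UMIs of the acinar group. The comparisons among acinar barcodes below are therefore also given without these 19 where that moved them.

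Barcodes rich in Reg transcripts differed from those poor in them. The 63 barcodes with the most UMIs of 6 Reg genes (at least 125654 CPM) were set beside the 63 with the fewest (at most 65466 CPM), which included all 19 low-enzyme barcodes. Of 7160 measured genes 4.06% were at least 2-fold higher in the Reg-rich set and 19.9% lower, and on residual CPM 9.13% and 11%. The Reg-rich set had a median of 16181 UMIs and 0.368% mitochondrial UMIs, and the Reg-poor set 11026 and 0.977%. With every barcode thinned to 5000 UMIs, the log2 ratios were 5.54 for Gkn3, 3.36 for Lrg1, 2.89 for Lcn2 and 2.09 for Pigr, genes described next. The part of the mitochondrial share was not tested.

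By rank, the 5 genes with the highest ratios in the Reg-rich set were Gkn3, Lrg1, Lcn2, Procr and Pigr. Gkn3, a gastrokine of the stomach lining, was at 660 CPM there and at 13.1 CPM in the Reg-poor set, or 5.59 as a log2 ratio (4.84 to 6.61). Lcn2, the iron-trapping acute-phase lipocalin, was at 1089 against 87.4 CPM, a ratio of 3.63 (3.31 to 3.98). Lrg1, another acute-phase gene, was at 403 against 28.4 CPM, and Pigr, the receptor that carries IgA across epithelia, at 182 against 26.2 CPM. With barcodes under 50000 CPM of enzymes left out and the sets formed anew, the log2 ratios were 6.36 for Gkn3, 3.94 for Lcn2, 3.12 for Lrg1 and 2.34 for Pigr. Procr, the protein C receptor, had 3.30, but 24.5% of its acinar UMIs came from 1 barcode.

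Several enzymes were lower in the Reg-rich set. Pnlip was at 624 against 5613 CPM, a log2 ratio of −3.17 (−3.28 to −3.06; −2.76 on residual CPM). Try4 was at 7848 against 26150 CPM, a ratio of −1.74 (−1.33 on residual CPM), and Cela1 at 1812 against 7516 CPM. Ptf1a differed little, at 74.2 against 94 CPM, with an interval of the log2 ratio from −0.78 to 0.10. Of 16 measured zymogen proteases 7 were lower and 0 higher in CPM, and 6 and 0 on residual CPM. The summed level of the list was not lower, at 391332 CPM in the Reg-rich and 380858 CPM in the Reg-poor set. Lipases, amylases and nucleases summed to 57876 against 53346.5 CPM, and granule and secretion genes to 21598.7 against 24485.5 CPM. The Reg-poor sums include the 19 low-enzyme barcodes. Without the barcodes under 50000 CPM of enzymes the median log2 ratio of these proteases was −0.98, where it had been −0.65. The mesenchymal list turned from −3.27 to 0.69 and the EGFR and MAPK list from −1.36 to 0.51, so their lower values rested on those 19 barcodes.

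Keratin-rich acinar barcodes were set against keratin-poor ones in the same way, with sets of 63 barcodes cut at 1476 and 319 CPM of Krt7, Krt8, Krt18 and Krt19 together. These sets also differed in other measures: the keratin-rich one held 17 of the 19 low-enzyme barcodes against 1, had 2579 detected genes against 897, 1.21% mitochondrial UMIs against 0.204%, and 40.7% secretory UMIs against 76.6%. The part of detected genes and of the mitochondrial share in the differences was not tested. Of 6857 measured genes 85.5% were at least 2-fold higher in the keratin-rich set and 1.25% lower in CPM, and 38.3% and 5.12% on residual CPM.

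In the keratin-rich set 13 of 16 zymogen proteases were lower in CPM and 16 on residual CPM. The keratin score was per all UMIs, so barcodes with few secretory UMIs score high, and lower proteases are partly built into these sets. With keratins on residual CPM, their Spearman correlation with the enzyme sum was −0.22 over all acinar barcodes. It was −0.16 over those with at least 50000 CPM of enzymes. Pnlip was lowest among the genes named by rank, at 514 against 5783 CPM, a log2 ratio of −3.49 (−4.84 on residual CPM). Clu was at 10584 against 1420 CPM, with ratios of 2.90 and 1.55, and Spp1 had 4.71 and 3.36. Sox9 had 2.06 in CPM (1.48 to 2.73) and 0.72 in residual CPM. That was near the median over all measured genes, which was 2.04 in CPM and 0.69 in residual CPM. Ptf1a had 1.47 and 0.13, and Rbpjl 1.07 and −0.28, so the direction of Rbpjl depends on the scale. Of 11 acinar factors 8 were higher and 1 lower in CPM, but 0 and 1 on residual CPM. Without the barcodes under 50000 CPM of enzymes, the ratio of Pnlip was −3.16, and the medians were −1.33 for the proteases (−1.61 with them) and 2.87 for the ductal genes (2.91 with them).

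A further feature of the acinar barcodes was a low level of 1 nuclear RNA, Malat1, in most of them. Malat1, a long noncoding RNA kept in the nucleus, had no UMI in 117 of the 255 acinar barcodes and in 24 of the 2295 others. Its median was 172 residual CPM in acinar and 20602 residual CPM in other kept barcodes. With a limit of 1000 residual CPM, set after the values were seen, 167 acinar barcodes (65.5%, exact binomial interval 59.3% to 71.3%) were Malat1-poor. The share was 3.69% of the Epcam-high and 1.35% of the enzyme-low barcodes. This is a division of a range and not a cell type; 14 acinar barcodes lay between 500 and 2000 residual CPM.

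**Figure D5:**
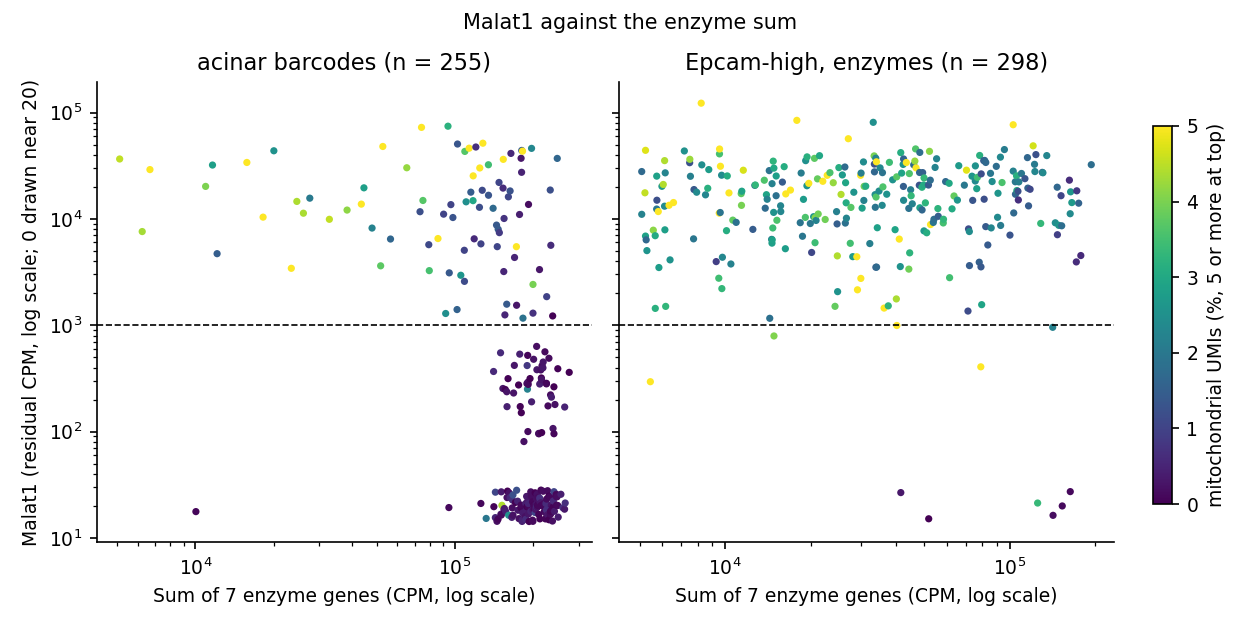
Malat1 (vertical, residual CPM, log scale, 0 drawn near 20) against the enzyme sum (horizontal, CPM, log scale) for the 255 acinar and the 298 Epcam-high barcodes; each point is 1 barcode, coloured by its mitochondrial UMIs (%), and the dashed line marks 1000 residual CPM. Most acinar barcodes with the highest enzyme sums lie below the line, and nearly all Epcam-high barcodes lie above it.

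Malat1-poor and the 88 Malat1-rich acinar barcodes had medians of 14366 and 16327.5 UMIs and of 1044 and 2523 genes. Mitochondrial UMIs were a median of 0.195% against 1.60%, and 0.952% against 3.96% of pooled residual UMIs. The median enzyme sum was 203881 CPM in the Malat1-poor and 117565 CPM in the Malat1-rich barcodes, and 18 of the 19 low-enzyme barcodes were Malat1-rich. By enzyme range, pooled Malat1 was 18550, 18700, 15622, 7295 and 1635 residual CPM from lowest to highest. In the Epcam-high barcodes it was 17287, 19470, 21305 and 13767 residual CPM over the first 4 of these ranges.

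Of 6961 measured genes 0.474% were at least 2-fold higher in Malat1-poor than in Malat1-rich acinar barcodes and 78.9% lower in CPM, and 2.34% and 40.2% on residual CPM. The other nuclear RNAs were low with Malat1. Xist, which coats the inactive X chromosome, had 5 UMIs in Malat1-poor and 1518 in Malat1-rich barcodes, a log2 ratio of −8.90 (−7.91 on residual CPM). Neat1, the scaffold of nuclear paraspeckles, had 19 and 687 UMIs, with ratios of −5.93 and −4.94. In 103 acinar barcodes none of Malat1, Neat1 and Xist had a UMI.

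The acinar factors differed by about as much as all genes, and the zymogen proteases the other way. Rbpjl had a log2 ratio of −2.61 (−1.62 on residual CPM), and Ptf1a −1.45 (−0.45). Of 11 acinar factors 8 were lower and 0 higher in CPM, and 4 and 1 on residual CPM. Their median was −1.75 in CPM and −0.76 on residual CPM, beside −1.70 and −0.71 over all measured genes. Of 13 zymogen proteases 7 were higher in CPM and 13 on residual CPM, and none was lower. Cela2a had 1.78 (2.77), Pnlip 1.76 (2.76) and Ctrb1 0.77 (1.77). P4hb, the disulphide isomerase, had 0.06 (1.06).

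The relation of Pnlip to the other genes was also seen within the 167 Malat1-poor barcodes. There Pnlip went with Try4 (0.82) and Cela3b (0.76) and opposite to Reg3b (−0.66). Ctrb1 and Malat1 were related at −0.51 over all 255 barcodes and at 0.07 within the Malat1-poor ones. The second value cannot show whether the relation held there. That set was cut on Malat1 itself, and 117 of its 167 barcodes had no Malat1 UMI.

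The Malat1-rich acinar barcodes alone were also set against the 2257 Malat1-rich barcodes that were not acinar, with 3.87% of 9520 measured genes at least 2-fold higher and 42.6% lower in CPM (12.3% and 11.6% on residual CPM). Ptf1a had a log2 ratio of 2.01 (2.87 on residual CPM), Rbpjl 3.28 (4.15) and Ctrb1 5.43 (6.30). Of 25 ductal genes 19 were lower and 0 higher (16 and 1 on residual CPM). Malat1 itself had −1.23 and −0.36.

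Markers of other cells were counted in the same barcodes. Summed over the acinar barcodes, the 5 erythroid markers had 0 UMIs, the 6 neutrophil markers 1, the 9 T and NK markers 3, the 7 B and plasma markers 5 and the 7 endothelial markers 6. Of 9 fibroblast markers 3, Lum, Pdgfra and Dpt, were at 0, and all 9 together had 20 UMIs. The 9 macrophage markers had 50 UMIs, with Csf1r and Cd68 among the 5 at 0. The 7 tuft cell markers had 67 UMIs, with Trpm5 and Pou2f3 among the 4 at 0, and their sum was 15.3 CPM in acinar and 35.7 CPM in Epcam-high barcodes, or 41.7 and 40.6 on residual CPM. The 17 islet markers summed to 145 CPM in acinar barcodes, and to 14.2 CPM in those with at least 50000 CPM of enzymes, with Neurod1 and Isl1 at 0.

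The 10 ductal epithelial markers were present, at a summed 1341 CPM against 11447 CPM in Epcam-high and 21203 CPM in enzyme-low barcodes, and 938 CPM in the acinar barcodes of at least 50000 CPM of enzymes. A doublet caller set to mark 63 barcodes marked 1 acinar, 14 Epcam-high and 48 enzyme-low ones. Another 57 barcodes met the enzyme and Epcam limits but not the quality filter, 49 of them with fewer than 500 genes and 24 without a Malat1 UMI. Their median was 2267 UMIs and 340 genes.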

How the data were processed

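Droplet 3′ single-cell RNA-seq (Chromium Next GEM) gave 1 UMI count matrix per library. The authors deposited raw counts per gene and barcode. The submitters' processing notes name Cell Ranger 7.0.0 and GRCm39, and the matrix header names version 6.1.2, per the file headers; other settings of the counting are not given in the sources used here. Promoter letters come from a RefSeq table of another build, GRCm38.p6, and were matched by gene symbol.

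Counts were read with Python 3.11.15, scipy 1.17.1 and pandas 2.3.3. Barcodes under 500 genes or 1000 UMIs, or above 20% mitochondrial UMIs, were removed, which left 2550 of 3082 in the whole tumour and 5092 of 5500 in the CD9-high library, with median depths of 17686 and 21791.5 UMIs. Of 55361 features 1705 share a symbol with another and were not named. With 1 library per group no test between groups is possible. UMIs were summed per group of barcodes, and log2 ratios of pooled CPM were formed with 0.5 counts added. Intervals (exact Poisson, exact conditional binomial or Clopper-Pearson, 95%) cover counting error only, and each share of 0 allows up to 3 counts. Genes with a mean of at least 5 CPM over both groups were measured; higher and lower mean at least 2-fold, a rule of size. Residual CPM is per 1000000 UMIs outside the 64 genes of 4 secretory lists. Named genes are those of the gene lists plus the 15 highest and 15 lowest by log2 ratio with a mean of at least 50 CPM. A few others (Cd9, Trp53, Malat1, 2210010C04Rik) were named after their values were seen. Results for 1 gene and its allele are not reported here.

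The members, gene lists and comparisons were chosen with earlier results of these data known. The limit on Malat1, the ranges of the enzyme sum, the set without barcodes under 50000 CPM, and the promoter pattern were chosen after the values were seen. Doublets were called with Scrublet in scanpy 1.11.5, taking the highest scores at the expected 2.47% since its automatic threshold marked 0.549%; they were left in, and removing them was an alternative. Shares of barcodes with a UMI were thinned to 5000 UMIs or to 1500 residual UMIs. Alternatives were other enzyme, Epcam and expression limits, both scalings, the mean of barcode CPM, larger sets of Reg-rich and keratin-rich barcodes and thinning. The summing and ratio step was tested on simulated counts.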

Additional observations from a re-analysis of the deposited data

How the results depend on the processing

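No paired analysis was possible because each group is 1 library and the labels carry no replicate numbers. The acinar share of 10% was 7.37% with Epcam under 200 CPM and 21.7% with no Epcam limit. The Malat1-poor share of 65.5% was 79.3% with Epcam under 200 CPM and 63.5% to 70.3% under the other settings. Against the other kept barcodes, 170 genes were at least 2-fold higher and 7322 lower; the counts were 653 and 1889 on residual CPM, 782 and 1551 with the predicted trypsinogen-like genes also set aside, 66 and 1604 at a mean of at least 50 CPM, 4242 and 13107 with no minimum, and 368 and 4039 for Malat1-rich acinar barcodes. Against the Epcam-high barcodes, 113 and 6662 became 447 and 1086 on residual CPM, 54 and 1366 at 50 CPM, 1199 and 14290 with no minimum, and 227 and 2501 for Malat1-rich ones. Between Reg-rich and Reg-poor sets, 291 and 1423 became 654 and 785 on residual CPM, 127 and 420 with all barcodes split in the middle, 510 and 3380 for Malat1-rich ones, and 993 and 181 from 50000 CPM of enzymes; 814 were lower from 20000 CPM and 889 higher after thinning. Between keratin-rich and keratin-poor sets, 5863 and 86 became 2626 and 351 on residual CPM, and 37 were lower with all barcodes split in the middle, 137 after thinning and 436 for Malat1-rich ones.

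Some directions of values at least 2-fold turned, and the cause was not tested beyond what the setting removes. With doublets removed, the log2 ratios of Iglc1 and Igha against the other kept barcodes went from −7.87 and −7.04 to 0.00255 and 0.36. On residual CPM the medians of the proliferation, interferon and embryonic lists were 0.22, 0.10 and 0.24, and 0.35, 0.23 and 0.37 with the predicted genes set aside; proliferation was 0.34 for Malat1-rich acinar barcodes. Against the Epcam-high barcodes the acinar factors were 0.18 on residual CPM, and proliferation was 0.14 for Malat1-rich ones. Between Reg-rich and Reg-poor sets from 50000 CPM of enzymes, the medians were 0.51 (EGFR and MAPK), 0.69 (mesenchymal), 0.69 (immediate early), 1.5 (proliferation; −4.51 over all, or −2.42 with genes at 0 set to 3 counts) and 0.34 (glycolysis), and Ppy, Igfbp4, Meg3 and Ier3 had 2.48, 0.33, 0.90 and 0.15; Ppy had 0.90 from 20000 CPM. Between keratin-rich and keratin-poor sets Ins2 went from 6.84 to −0.19 from 20000 CPM and −0.26 from 50000 CPM. Over all settings 14 list medians and 9 named-gene values that had been at least 2-fold changed sign. Of the others, 414 list medians moved by 0.1 or more on the log2 scale and 215 by less, and 467 named-gene values left their counting interval and 544 did not. Genes with few UMIs, such as Ptf1a with 307, limit what depth can show in single barcodes.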

Other observations

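Some genes outside the lists, named after their values were seen, were also well represented in the acinar barcodes. Igf1, a growth factor, was detected in 146 of the 255 acinar barcodes at 96.3 CPM (87.3 to 106), against 55.4 CPM in the Epcam-high and 2.19 CPM in the enzyme-low barcodes. Lrg1 was detected in 159 acinar barcodes at 188 CPM, against 38.9 and 15.4 CPM, and Pigr in 119 at 95.8 CPM, against 14.6 and 23.5 CPM. Gkn3, the gene with the highest ratio between the Reg-rich and Reg-poor sets, was detected in 96 acinar barcodes at 291 CPM and was higher in the enzyme-low barcodes, at 724 CPM. Rn18s, a ribosomal RNA, stood at 39106 CPM in acinar and 24955 CPM in enzyme-low barcodes and was the most abundant gene in 27 acinar barcodes. Mki67, a marker of dividing cells, had 39 UMIs in 4 acinar barcodes, with 97.4% of them in 3.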
